A study of Mus musculus with 10 samples.

Results

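The genes described here encode the subunits of the oxidative phosphorylation machinery, complexes I to V, together with cytochrome c. They were chosen by symbol (Nduf without the Ndufaf assembly factors, Uqcr, Cox4 to Cox8, Atp5, Sdha to Sdhd, Cyc1 and Cycs) plus the protein-coding genes of the mitochondrial genome, where the normalized counts averaged 10 or more over the libraries. This gave 94 members among the 15180 genes at that level, out of 26312 genes in the table: 81 encoded in the nucleus and 13 in the mitochondrial genome. Of 101 protein-coding candidates in the annotation, 3 were under the minimum (Cox4i2, Cox8c and Ndufa4l2) and 4 had no row in the table (Cox6a2, Cox7b2, Cox8b and a second Atp5o entry). By complex, the nuclear members were 36 of complex I, 4 of complex II, 9 of complex III, 14 of complex IV, 17 of complex V and cytochrome c. The mitochondrial members were 7 of complex I, 1 of complex III, 3 of complex IV and 2 of complex V.

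RNA came from mammary glands of C57BL/6J mice aged 12 weeks, from 50000 luminal epithelial cells per library sorted as EpCAM-high, CD49f-low, Sca1-positive and CD49b-negative, a gate that holds the hormone-sensing luminal cells. Mice labelled RSK2(+/+), here WT, were compared with mice labelled RSK2(-/-), here KO, at estrus (3 WT and 3 KO libraries) and at diestrus (2 WT and 2 KO libraries). RSK2 is a kinase downstream of ERK1/2, and the series asks about its part in estrogen homeostasis. The labels give neither the tissue range of the deletion nor whether a library held one mouse or several, so p-values measure the spread between libraries, which may be technical.

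Normalized counts summed to 14.1 M to 15.3 M per library. Rps6ka3, which encodes RSK2, lay between 128 and 137 in the WT and between 156 and 164 in the KO libraries at estrus, so its count was not lower in the KO libraries; a whole-gene count does not test the deletion itself, and WT and KO below are the labels. Markers of hormone-sensing luminal cells summed to between 430815 and 580997 normalized counts per library, against 1782 to 3293 for luminal progenitor, 94 to 3101 for fibroblast, 337 to 1227 for basal and 22 to 94 for endothelial markers. The first list includes the general epithelial genes Krt8, Krt18, Krt19 and Epcam. Its sum therefore does not separate hormone-sensing from progenitor cells. The fibroblast sum ranged from 107 to 3101 among the KO estrus libraries, most of it from Dcn. KO estrus library 1 stood apart in several measures used below, and the main counts and medians are given with and without it.

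Complex I takes electrons from NADH and complex II from succinate, complex III passes them by way of cytochrome c to complex IV, which reduces oxygen, and complex V uses the resulting proton gradient to make ATP. Complexes I, III, IV and V combine subunits translated in the cytosol with subunits translated inside mitochondria, while complex II is wholly nuclear-encoded. In luminal epithelium of the mammary gland, these complexes serve the energy needs of a tissue that grows and regresses with each ovarian cycle. In each complex a few core subunits carry the redox centres or the catalytic sites, and many small accessory subunits surround them.

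The mitochondrial genes had the highest levels per transcript length. Their median was 9332 normalized counts per kilobase (range 2646 for mt-Nd2 to 40567 for mt-Atp6), against a median of 1763 over the nuclear members. Among nuclear members, Atp5b, the catalytic beta subunit of the ATP synthase, stood first at 12702 per kilobase, followed by Cox4i1 at 10254, Cox8a at 7768, Cox6a1 at 7534 and Ndufa7 at 7279. The nuclear medians per kilobase were 1375 for complex I, 1577 for complex II, 3079 for complex III, 3626 for complex IV and 2622 for complex V. Cytochrome c (Cycs) was at 918 per kilobase.

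Where a subunit exists in tissue-specific forms, the widely expressed form was the one measured at high level. Cox4i1 averaged 10254 normalized counts per kilobase, and its hypoxia-responsive alternative Cox4i2 ranged from 0 to 3 normalized counts. Cox6b1 was at 5481 per kilobase and the testis form Cox6b2 at 75. Cox7a2 was at 3435 per kilobase, Cox7a2l, a factor of respiratory supercomplexes, at 1330, and the muscle form Cox7a1 at 53.7. Ndufa4, counted here with complex IV, was at 6332 per kilobase, while Ndufa4l2 ranged from 0 to 3 normalized counts. The 3 genes for the c subunit of the ATP synthase, which encode the same mature protein, were all present, with Atp5g3 at 5126, Atp5g2 at 2363 and Atp5g1 at 373 per kilobase. Before division by length they averaged 3706, 1727 and 1759 normalized counts. Atp5g1 and Atp5g2 thus differed per kilobase through the lengths used, 4715 and 731 bases.

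At estrus the nuclear members were shifted upward in the KO libraries as a body. Expressed as the mean log2(normalized count + 1) relative to the mean of the 10 libraries, the 81 nuclear members stood at 0.07, -0.04 and -0.16 in WT estrus libraries 1 to 3. The KO estrus libraries stood at 0.47, 0.21 and 0.26. At diestrus the WT libraries stood at -0.09 and -0.17 and the KO libraries at -0.24 and -0.31. The 3 KO estrus libraries were thus the highest of the 10 and the 2 KO diestrus libraries the lowest, with no overlap between WT and KO at either stage. As a share of all normalized counts, the nuclear members made up 1.23% to 1.33% in WT and 1.52% to 1.69% in KO at estrus, and 1.18% to 1.29% in WT and 1.11% to 1.15% in KO at diestrus. In these bulk samples, more cells of a type and more RNA per cell cannot be told apart.

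**Figure D1:**
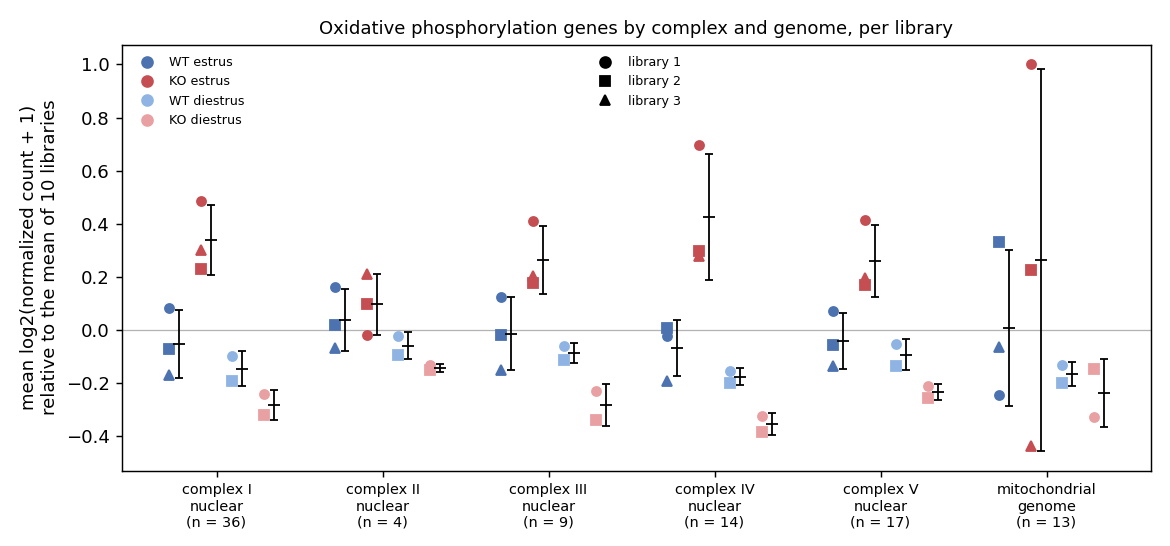
Mean log2(normalized count + 1) of the members, relative to the mean of the 10 libraries, for each nuclear complex and for the mitochondrial genome; each point is a library (shape gives its number), and black bars are the group mean and SD. For complexes I, III, IV and V the 3 KO estrus libraries lie above all others, while the mitochondrial genes of the KO estrus libraries spread from -0.44 to 1.0.

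Gene by gene, 4 members were called higher in KO at estrus at an adjusted p under 0.05 (limma, adjusted over all tested genes) and 0 lower. Over all tested genes, 1.26% were called higher and 2.94% lower. Of the 81 nuclear members, 76 had a difference above 0, with a median log2 difference of 0.43, against -0.01 over all tested genes. In 57 of them every KO library exceeded every WT library and in 2 the reverse held, where the shares over all tested genes were 12.9% and 13.1%. The member calls at estrus were sensitive to the fit: none of the 4 remained when the spread was fitted without its trend on level, with library weights, over the estrus libraries alone or without KO estrus library 1.

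Ndufa3, an accessory subunit of complex I (ENSMUSG00000035674, GRCm38 chromosome 7, 3617373 to 3620327), had normalized counts of 1021, 931 and 897 in WT and 1755, 1263 and 1400 in KO at estrus. The lowest KO library exceeded the highest WT library, and the log2 difference was 0.62 ± 0.14 (SE; adjusted p = 0.039). At diestrus it was level, at 862 and 805 in WT and 840 and 823 in KO. The gene overlaps Tfpt on the opposite strand, and whether counting used strand is not given in the sources used here.

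Ndufb9, another accessory subunit of complex I (ENSMUSG00000022354, chromosome 15, 58933756 to 58939488), had 2268, 2291 and 2292 normalized counts in WT and 4208, 3151 and 3029 in KO at estrus. The WT libraries were nearly equal and all KO libraries were higher, with a log2 difference of 0.58 ± 0.14 (adjusted p = 0.042). Uqcr10, a small subunit of complex III (ENSMUSG00000059534, chromosome 11, 4701973 to 4704342), had 1511, 1372 and 1371 in WT and 2457, 1839 and 1917 in KO. Its log2 difference was 0.54 ± 0.13 (adjusted p = 0.048), again without overlap. At diestrus Uqcr10 was lower in both KO libraries, at 1118 and 1103 against 1373 and 1351, a log2 difference of -0.29 ± 0.16 that was not called (adjusted p = 0.90).

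Atp5g2, one of the genes for the c ring of the ATP synthase (ENSMUSG00000062683, chromosome 15, 102662864 to 102672352), had 1351, 1554 and 1427 normalized counts in WT and 2593, 1979 and 1937 in KO at estrus. The groups did not overlap, and the log2 difference was 0.58 ± 0.14 (adjusted p = 0.042). Of the 50-base stretches of its transcript, 87.4% also occur in the processed copies Gm10175 and Gm10231, so its count is uncertain. For the paralogs the differences were 0.27 ± 0.14 in Atp5g3 and 0.25 ± 0.15 in Atp5g1, neither of them called.

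**Figure D2:**
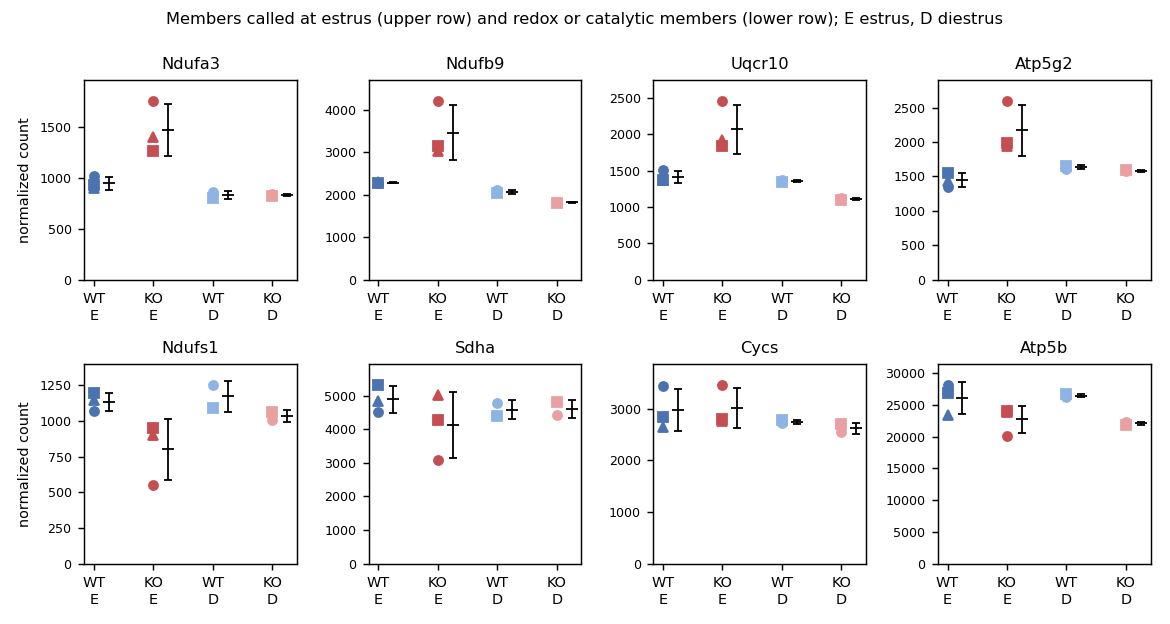
Normalized counts in each library (points, shape as library number; E estrus, D diestrus) with group mean and SD in black, for the 4 members called at estrus in the upper row and for Ndufs1, Sdha, Cycs and Atp5b in the lower row. The KO estrus libraries lie above the WT estrus libraries in each upper panel, while in the lower row they lie below for Ndufs1 and overlap for Sdha, Cycs and Atp5b.

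By complex, the upward shift at estrus was present in the accessory subunits of complexes I, III, IV and V and small in complex II and cytochrome c. Over all tested genes, the groups at estrus were without overlap and KO higher in 12.9%, and KO lower in 13.1%. In complex I, 35 of 36 nuclear members were above 0 (median 0.42), and 27 had no overlap between the groups. The largest difference in that complex was 0.72 ± 0.21 in Ndufa7 (adjusted p = 0.066), with 4118, 2970 and 2962 in WT and 7432, 5137 and 4256 in KO. Ndufa7 also had the highest level per kilobase among the nuclear members of complex I, followed by Ndufa1, at 1733, 1576 and 1627 in WT and 2725, 1930 and 1669 in KO, overlapping groups (0.33 ± 0.18). In complex IV all 14 nuclear members were above 0 (median 0.47), 13 of them without overlap. Its nuclear members of highest level per kilobase were Cox4i1, at 7669, 7368 and 6678 in WT and 11436, 9463 and 9028 in KO (log2 difference 0.46 ± 0.14), and Cox8a, at 3807, 4064 and 3708 against 6529, 4653 and 4647 (0.43 ± 0.15). Neither passed the threshold, with adjusted p-values of 0.078 and 0.10. The numerically largest difference in complex IV, 0.78 ± 0.54 in Cox7a1, rested on 10 to 57 normalized counts per library at estrus, with overlapping groups.

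In complex III, all 9 nuclear members were above 0 with a median of 0.31, and they fell into a low and a high portion. The small subunits Uqcr11 (0.57 ± 0.18), Uqcr10 and Uqcrh (0.47 ± 0.15) had the larger differences, and the abundant Uqcrb stood at 0.31 ± 0.13. The core protein Uqcrc2, the Rieske iron-sulfur protein Uqcrfs1 and cytochrome c1 (Cyc1) stood at 0.02 ± 0.11, 0.01 ± 0.11 and 0.06 ± 0.14. In complex V, 14 of 17 nuclear members were above 0 (median 0.43), and the exceptions included both subunits of the catalytic head's hexamer. Atp5b had 28080, 26863 and 23328 normalized counts in WT and 20169, 24012 and 23890 in KO at estrus, overlapping groups with a log2 difference of -0.20 ± 0.16. Its partner Atp5a1, the alpha subunit, had 12103, 12523 and 11343 against 9570, 11294 and 12119 (-0.13 ± 0.14), and Atp5s, a coupling factor that is no structural subunit, stood at -0.34 ± 0.16. The largest difference in the complex was that of Atp5mpl at 0.58 ± 0.16 (adjusted p = 0.055). Without KO estrus library 1 the estrus medians were 0.35 in complex I, 0.14 in complex II, 0.20 in complex III, 0.30 in complex IV and 0.31 in complex V, and 74 of the 81 nuclear members were above 0.

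Complex II links the chain to the citric acid cycle. Its 4 members had a median log2 difference of 0.13 at estrus. In none were the groups apart, beside 12.9% of all tested genes apart with KO higher and 13.1% with KO lower. Sdha, the flavoprotein that oxidizes succinate, had 4522, 5308 and 4844 normalized counts in WT and 3075, 4278 and 5014 in KO (log2 difference -0.27 ± 0.17), with KO library 1 the lowest and a difference of -0.08 without it. The iron-sulfur subunit Sdhb stood at 0.09 ± 0.14 and the membrane anchors Sdhc and Sdhd at 0.18 ± 0.12 and 0.24 ± 0.13. Cycs had 3440, 2838 and 2647 normalized counts in WT and 3453, 2802 and 2767 in KO, a difference of 0.02 ± 0.14.

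The lowest value of any nuclear member was that of Ndufs1, the largest subunit of complex I, which holds several iron-sulfur clusters of the electron path. It had 1067, 1193 and 1145 normalized counts in WT and 555, 951 and 900 in KO at estrus. All KO libraries were below all WT libraries, opposite to the accessory subunits, and the log2 difference was -0.54 ± 0.19, which was not called (adjusted p = 0.098). Without KO library 1, the lowest, the difference was -0.29. Among other core subunits of complex I, Ndufv2 stood at 0.06 ± 0.12, Ndufs3 at 0.20 ± 0.13, Ndufv1 at 0.26 ± 0.14, Ndufs7 at 0.39 ± 0.12 and Ndufs8 at 0.45 ± 0.16.

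A grouping of the nuclear members by role, made after their values were seen and so not tested, set apart 16 members that carry redox centres or catalytic sites or, in complex II, form the enzyme. Their median log2 difference at estrus was 0.08, against 0.44 in the other 65. The groups were without overlap and KO higher in 3 of the 16 and in 54 of the 65, where 12.9% of all tested genes were so placed. These 16 also had longer transcripts, with a median length of 1642 bases against 731.

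Transcript length moved with the estrus difference across all genes, and the nuclear members are short, with a median of 865 bases against 2582 over all tested genes. Across the 81 nuclear members the Spearman correlation of length with the estrus difference was -0.72, and across the 15146 tested genes with a length it was -0.33; genes are not independent replicates, and all these values come from the same 6 libraries. Each library's own trend on length, as the log2 change per doubling of length, was -0.12, -0.03 and -0.08 in the KO estrus libraries, between -0.03 and 0.04 in the WT estrus libraries, and between 0.04 and 0.06 at diestrus. The medians by length class are given as a description, with the members included among all tested genes. Under 600 bases their median was 0.52, against 0.19 over all 1152 tested genes of that class, and all 19 were above 0. From 600 to under 1000 bases the medians were 0.46 and 0.28 (all 27 above 0), from 1000 to under 2000 bases 0.27 and 0.15 (24 of 26), and from 2000 bases 0.18 and -0.13 (6 of 9).

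With each library's smooth trend on length and GC content removed, the nuclear median at estrus was 0.24 in place of 0.43, 70 of 81 members stayed above 0, and 0 were called. In that scale the nuclear members stood at 0.06, 0.00 and -0.10 in the WT and at 0.27, 0.14 and 0.13 in the KO estrus libraries. The groups still did not overlap, at a smaller distance.

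**Figure D3:**
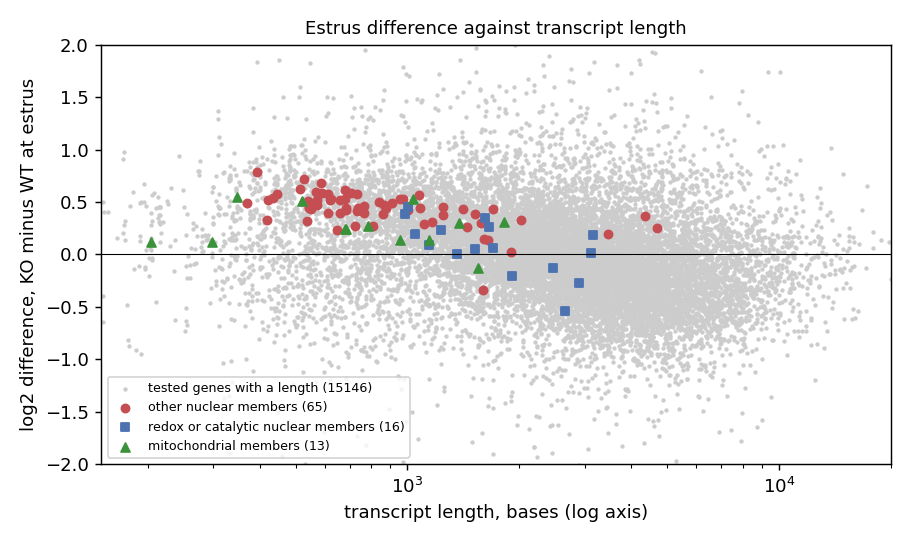
Log2 difference of KO minus WT at estrus against transcript length (log axis) for 15146 tested genes (grey), the nuclear members with redox or catalytic roles (16, blue squares), the other nuclear members (65, red) and the mitochondrial members (13, green); 342 genes lie outside the axes. The red points lie above 0 with 1 exception, and the differences of the nuclear members are smaller at greater length.

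At diestrus the nuclear members lay slightly lower in the KO libraries, with a median log2 difference of -0.15, and 0 were called. Over all tested genes 0.0395% were called in either direction at that stage; 2 nuclear members had an unadjusted p under 0.05, and the comparison rests on 2 libraries a group. In 49 of the 81 both KO libraries were below both WT libraries and in 1 both were above, where 21.6% and 21.4% of all tested genes were so placed. The medians were -0.15 in complex I, -0.09 in complex II, -0.16 in complex III, -0.20 in complex IV and -0.15 in complex V. The lowest value, -0.73 ± 0.34, was that of the low-level Cox6b2 (35 and 36 in WT, 26 and 17 in KO). Averaged over both stages, 0 members were called (0.665% of all tested genes) and 6 had an unadjusted p under 0.05, and the nuclear median was 0.11. The shares of all tested genes with such an unadjusted p, at diestrus and averaged, are not given here.

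The same members therefore often lay on opposite sides of WT at the 2 stages. In 33 of the 81 nuclear members and in 0 of the 13 mitochondrial members, every KO library was above every WT library at estrus and below every WT library at diestrus, an arrangement found in 2.71% of all tested genes; the reverse arrangement was found in 0 members and in 2.94% of all tested genes. The interaction of genotype and stage tests this difference directly. It was called in 0 members, as it was in 0% of all tested genes, and its unadjusted p was under 0.05 in 49 nuclear members and in 14.2% of all tested genes. The median interaction was 0.55 over the nuclear members and 0.32 with the length and GC trend removed. The smallest p among the members was that of Uqcr10, with an interaction of 0.83 (unadjusted p = 0.0022).

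Within the KO libraries the nuclear members were higher at estrus than at diestrus; whether this differed from WT is what the interaction tested, with no call. In WT, limma called 0 members between the stages, as it did 0% of all tested genes, 0 of the 94 had an unadjusted p under 0.05, and the nuclear median was 0.09. In KO, 56 members were higher at estrus and 0 lower, all 56 of them nuclear; over all tested genes 7.67% were called higher and 8.95% lower. The nuclear median was 0.62, and in 74 of the 81 all KO estrus libraries exceeded both KO diestrus libraries, an arrangement seen in 25% of all tested genes. The comparison shares its KO estrus libraries with the comparison at estrus.

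**Figure D4:**
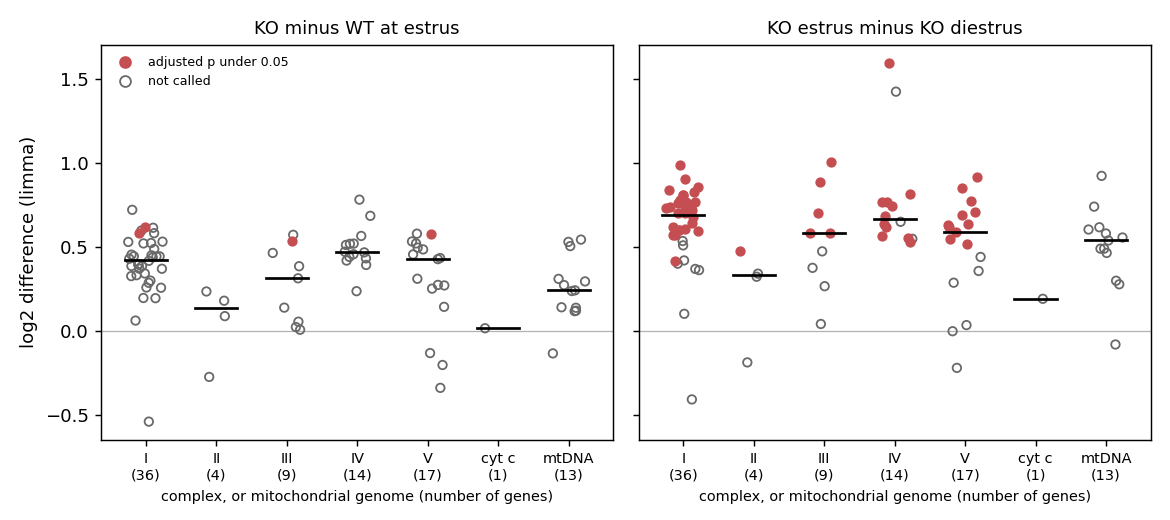
Log2 differences of each member for KO against WT at estrus (left) and for KO estrus against KO diestrus (right), by nuclear complex, with cytochrome c (cyt c) and the mitochondrial genome (mtDNA) apart; filled points passed an adjusted p under 0.05, and black lines are medians. On the left 4 members pass, on the right 56, and none of the mitochondrial genes passes in either panel.

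Complex I held 28 of the 56 called members, out of 36. These were Ndufa1, Ndufa2, Ndufa3, Ndufa5, Ndufa6, Ndufa7, Ndufa8, Ndufa11, Ndufa12 and Ndufab1 of the peripheral and membrane-arm accessory set, Ndufb2 to Ndufb11, Ndufc1 and Ndufc2, and Ndufs4, Ndufs5, Ndufs6, Ndufs7, Ndufv2 and Ndufv3. Their log2 differences ran from 0.41 in Ndufv2 to 0.99 in Ndufa7. Ndufb9 was at 4208, 3151 and 3029 at KO estrus and 1838 and 1812 at KO diestrus (log2 difference 0.91 ± 0.16, adjusted p = 0.0069). The members of complex I that did not pass included the core subunits Ndufs1 (-0.41 ± 0.21), Ndufs3 (0.37 ± 0.14), Ndufs8 (0.54 ± 0.18) and Ndufv1 (0.40 ± 0.15).

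In complex II only Sdhd passed, at 2192, 2300 and 2318 at KO estrus and 1666 and 1597 at KO diestrus (0.48 ± 0.15, adjusted p = 0.049). Complex III had 5 of 9 members called, the small subunits Uqcr10, Uqcr11, Uqcrb, Uqcrh and Uqcrq. Uqcr11 was the highest of them, at 5126, 3456 and 3758 at estrus and 2144 and 1891 at diestrus (1.01 ± 0.20, adjusted p = 0.0099). Uqcrfs1 stood at 0.04 ± 0.13.

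Complex IV had 11 of 14 called: Cox4i1, Cox5a, Cox5b, Cox6a1, Cox6b1, Cox6b2, Cox6c, Cox7a2, Cox7a2l, Cox7b and Cox8a, with differences from 0.53 in Cox5a to 1.60 in Cox6b2. Cox4i1, at 6799 and 5974 normalized counts at KO diestrus, differed by 0.64 ± 0.16 (adjusted p = 0.023). Complex V also had 11 called, of 17: Atp5d, Atp5e, Atp5g1, Atp5g3, Atp5h, Atp5j, Atp5j2, Atp5k, Atp5l, Atp5mpl and Atp5o, with differences from 0.52 in Atp5g3 to 0.91 in Atp5k. The alpha and beta subunits were level between the stages, Atp5a1 at -0.00 ± 0.16 and Atp5b at 0.04 ± 0.18, and the gamma subunit Atp5c1 stood at 0.36 ± 0.14 without passing. Over all complexes, 3 of the 16 redox or catalytic members and 53 of the other 65 passed.

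The count of 56 depended on library and setting. It was 28 without KO estrus library 1 and 0 without either KO diestrus library, which leaves 1 library whose spread is taken from the other groups. With the length and GC trend removed it was 16, with a nuclear median of 0.37. Without the 4 nuclear members that share over 50% of their 50-base stretches with another gene, 54 calls remained among 77 members. Of the 56 calls, 37 lay in the 53 members with no annotated gene on the opposite strand and 19 in the 28 members that overlap one, whose counts are uncertain because the strand setting is not given.

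The 13 mitochondrially encoded genes did not follow the nuclear members from library to library. On the same relative log2 scale, their mean stood at -0.24, 0.33 and -0.07 in the WT estrus libraries and at 1.0, 0.22 and -0.44 in the KO estrus libraries. At diestrus it was -0.13 and -0.20 in WT and -0.33 and -0.15 in KO. The KO estrus libraries thus held both the highest and the lowest value of the 10, and they enclosed all WT libraries. The pooled SD within groups was 0.45 for the mitochondrial mean and 0.11 for the nuclear mean.

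All 13 mitochondrial genes were highest in KO estrus library 1, and 4 were lowest in KO estrus library 3. Library 1 exceeded library 3 by 1.76 to 5.69 times (median 2.38), whereas the median ratio over the nuclear members was 1.24. No mitochondrial gene was called by limma in any comparison (0 of 13 with an unadjusted p under 0.05 at estrus). At estrus in none of the 13 did the KO libraries lie all above or all below the WT libraries. Over all tested genes 12.9% were all above and 13.1% all below, so few of 13 genes would be so placed at those shares. The median log2 difference at estrus was 0.24 with 12 of 13 above 0. Without KO estrus library 1 it was -0.04 with 2 of 13 above 0, and without KO estrus library 3 it was 0.55, with mt-Nd2, mt-Nd3 and mt-Nd6 called. Between KO estrus and KO diestrus the mitochondrial median was 0.54, and the largest difference was 0.92 ± 0.35 in mt-Nd2 (adjusted p = 0.090). In 3 of the 13 the groups had no overlap, where 25% of all tested genes had every KO estrus library above both KO diestrus libraries.

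Among the mitochondrial subunits of complex I, mt-Nd2 had 2380, 2848 and 2277 normalized counts in WT and 6710, 3423 and 2027 in KO at estrus (0.53 ± 0.32), and mt-Nd3 had 585, 1102 and 732 against 2542, 1289 and 447 (0.54 ± 0.47). Both ranges in KO enclosed the range in WT. The other 5, mt-Nd1, mt-Nd4, mt-Nd4l, mt-Nd5 and mt-Nd6, differed by 0.12 to 0.51. In complex III, mt-Cytb differed by 0.14 ± 0.23.

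Of the catalytic core of complex IV, mt-Co1 had 33268, 45113 and 34690 normalized counts in WT and 55672, 34237 and 20731 in KO at estrus, the only mitochondrial gene with a negative difference (-0.13 ± 0.32). mt-Co2 and mt-Co3 differed by 0.24 ± 0.23 and 0.27 ± 0.26. The membrane subunits of the ATP synthase, mt-Atp6 and mt-Atp8, differed by 0.24 ± 0.27 and 0.12 ± 0.26. In 7 of the 13, over 50% of the 50-base stretches of the transcript also occur in nuclear copies, so their counts depend on how the authors treated reads with several positions. mt-Nd5 and mt-Nd6 overlap on opposite strands.

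The 2 mitochondrial ribosomal RNAs were also highest in KO estrus library 1 but differed in the other libraries. mt-Rnr2 ranged from 10726 to 28262 normalized counts in the WT estrus libraries and from 12333 to 76884 in the KO estrus libraries, where library 3 was the lowest. mt-Rnr1 was at 2561, 2295 and 1555 in WT and 5897, 2619 and 3025 in KO at estrus, with all KO libraries above all WT libraries and library 3 above library 2. All genes of the mitochondrial chromosome together took 2.48% of the counts in KO estrus library 1 and 0.943% in KO estrus library 3, against 1.01% to 1.51% in the WT estrus libraries. KO estrus libraries 2 and 3 were both above every WT estrus library in 57 of 81 nuclear members and in 0 of 13 mitochondrial members. The share over all tested genes was not counted for this arrangement. For all 3 KO estrus libraries above every WT estrus library it was 12.9%.

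**Figure D5:**
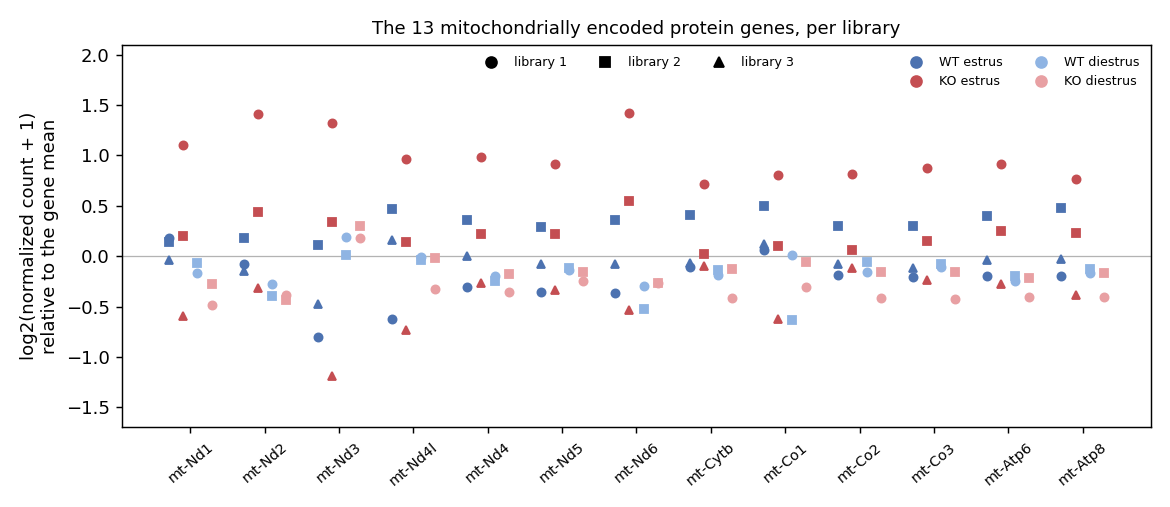
Log2(normalized count + 1) of the 13 mitochondrially encoded protein genes in each library, relative to the mean of the gene over 10 libraries (shape gives the library number). KO estrus library 1 is the highest point for all 13 genes, and KO estrus library 3 lies below the gene mean for all 13.

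Assembly factors, which insert cofactors and join the subunits, had 0 of 49 called at estrus (16 with an unadjusted p under 0.05, median 0.18). The share of all tested genes with such an unadjusted p at estrus is not given here, so the 16 cannot be judged against it. Between estrus and diestrus in KO, 14 were higher and 0 lower, against 7.67% of all tested genes called higher there. The 4 of smallest p were Coa3 (1.19 ± 0.15, adjusted p = 0.0027) and Coa6 (1.24 ± 0.25), both of complex IV assembly, Ndufaf3 (0.84 ± 0.17) of complex I assembly, and Pet100 (1.0 ± 0.21) of complex IV assembly. Coa3 had 794, 641 and 780 normalized counts at KO estrus and 312 and 331 at KO diestrus, with 581 to 629 in WT estrus and 493 and 501 in WT diestrus.

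Of 35 genes that maintain and express the mitochondrial genome, 1 was called at estrus, where 2.94% of all tested genes were called lower. It was the RNA-degrading enzyme Pnpt1, lower in KO (-0.64 ± 0.16, adjusted p = 0.049). Between KO estrus and KO diestrus, Top1mt and Hsd17b10 were higher, and Tfb2m, Fastkd5, Pnpt1 and Trmt10c were lower, 2 and 4 of 35 beside 7.67% and 8.95% of all tested genes. The transcription factor Tfam and the polymerase Polrmt stood at 0.08 ± 0.14 and -0.14 ± 0.17 at estrus. Tfb2m, a factor that opens mitochondrial promoters, had 648, 661 and 579 in WT and 472, 464 and 444 in KO at estrus (-0.45 ± 0.12, adjusted p = 0.059).

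Of 16 tested transcriptional regulators of mitochondrial genes, Yy1 was called higher at estrus (0.77 ± 0.19, adjusted p = 0.046), with 148, 226 and 156 normalized counts in WT and 336, 273 and 282 in KO. Gabpb1, the partner of the ETS factor Gabpa, was called lower (-0.58 ± 0.14, adjusted p = 0.045), with 1556, 1848 and 1543 against 950, 1107 and 1272. Nrf1, which binds the promoters of many respiratory genes, stood at -0.29 ± 0.15, Gabpa at -0.12 ± 0.13 and Esrra at 0.23 ± 0.16. The coactivators Ppargc1a and Ppargc1b were at 9 to 75 normalized counts and differed by -0.66 ± 0.44 and -0.00 ± 0.29. At estrus 1.26% of all tested genes were called higher and 2.94% lower. Between KO estrus and KO diestrus, Pprc1, Gabpb1 and Hif1a were lower and no regulator was higher, beside 8.95% and 7.67% of all tested genes.

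The enzymes of the citric acid cycle supply the chain with NADH and succinate. They were listed together with the pyruvate dehydrogenase subunits Pdha1, Pdhb, Dlat and Pdhx. Over these 18 genes the median was -0.16 at estrus, and 5 were above 0. The pyruvate dehydrogenase subunits stood at -0.42, -0.17, -0.16 and -0.21, and no median was taken without them. Without KO estrus library 1 the median of the 18 was -0.04 with 7 above 0. Ogdh, the first component of the oxoglutarate dehydrogenase complex, was called lower (-0.62 ± 0.16, adjusted p = 0.049), at 5208, 5442 and 5155 in WT and 2694, 4216 and 3536 in KO. Over all tested genes, 2.94% were called lower at estrus. Between the stages in KO, Idh2 was higher (0.53 ± 0.15) and Dld lower (-0.73 ± 0.16), beside 7.67% and 8.95% of all tested genes. Ribosomal proteins, the other large family of short, abundant transcripts, stood at a median of 0.68 at estrus for 76 cytosolic members, 11 of them called higher against 1.26% of all tested genes; without KO estrus library 1 the median was 0.44 and 0 were called. The 78 mitochondrial ribosomal proteins stood at 0.27 with 2 called higher, and at 0.23 with 0 called without that library.

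Promoters were examined because the nuclear members moved together in these comparisons. RefSeq start-site windows (GRCm38.p6, 250 bases before to 50 after the start) were found for 66 of the 81 nuclear members. On both strands, the NRF1 motif (GCGCA, any base, then GCGC) occurred in the windows of 17 members (25.8%) and in 5.19% of all 27025 genes with a window. The ETS motif CCGGAAG occurred in 16 (24.2% against 9.93%), the YY1 motif AAGATGGC in 9 (13.6% against 3.19%) and the motif of estrogen-related receptors, CAAGGTCA, in 4 (6.06% against 1.76%). At least 1 of the first 3 occurred in 36 members (54.5% against 16.4%). The 27025 genes were not limited to those averaging 10 or more, so the members were not compared with genes of like level. A match describes the letters in the window and is not a measured site.

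The 200 bases before the start are shown for 4 members with unlike promoters and unlike differences, 5′ to 3′ on the strand of the gene and with motif matches in capitals. Atp5g2 (called at estrus) holds 1 NRF1 match, Cox6a1 (called between the stages in KO) holds 2 NRF1 matches and 1 reverse-strand ETS match, Sdha (not called) holds 3 NRF1 matches, and Uqcr10 (called in both comparisons) holds none of the 4 motifs.
Atp5g2 (chr15:102671048-102671247, minus strand): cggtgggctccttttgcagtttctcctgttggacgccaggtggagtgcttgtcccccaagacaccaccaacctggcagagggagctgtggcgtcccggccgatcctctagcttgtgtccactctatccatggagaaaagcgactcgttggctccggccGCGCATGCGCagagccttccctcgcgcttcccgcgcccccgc
Cox6a1 (chr5:115348959-115349158, minus strand): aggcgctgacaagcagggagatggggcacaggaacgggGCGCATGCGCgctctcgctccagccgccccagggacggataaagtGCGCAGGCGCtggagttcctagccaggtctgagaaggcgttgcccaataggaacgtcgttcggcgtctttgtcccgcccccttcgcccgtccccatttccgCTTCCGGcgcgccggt
Sdha (chr13:74350241-74350440, minus strand): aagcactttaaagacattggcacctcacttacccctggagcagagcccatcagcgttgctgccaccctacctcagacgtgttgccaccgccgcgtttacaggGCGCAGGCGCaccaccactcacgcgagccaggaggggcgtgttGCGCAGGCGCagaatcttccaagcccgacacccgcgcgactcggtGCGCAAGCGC
Uqcr10 (chr11:4704345-4704544, minus strand): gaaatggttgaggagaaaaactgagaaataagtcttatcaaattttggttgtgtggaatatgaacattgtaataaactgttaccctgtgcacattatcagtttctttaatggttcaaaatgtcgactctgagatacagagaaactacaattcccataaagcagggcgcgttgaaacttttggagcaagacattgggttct

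Members with and without a match had close medians. The 17 members with an NRF1 match had a median log2 difference at estrus of 0.45 and the 49 without one 0.43, and between the stages in KO the medians were 0.69 and 0.62. For any of NRF1, ETS and YY1, the medians at estrus were 0.45 in 36 members with a match and 0.41 in 30 without. Sdha, with 3 NRF1 matches, and Uqcr10, with none, stood at -0.27 and 0.54.

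Among cell types that could add oxidative transcripts, the markers of skeletal muscle moved with the estrus result. All 3 tested muscle markers, Ckm, Mylpf and Mb, had every KO library above every WT library at estrus, as had 12.9% of all tested genes. The 5 listed markers in the table summed to 104 to 160 normalized counts in WT and 184 to 232 in KO, and to 97 to 117 at diestrus. The defining markers Myh4 and Tnnt3 ranged from 0 to 2 in all libraries, and the muscle forms Cox6a2 and Cox8b had no row in the table. The muscle form Cox7a1 had 17, 35 and 10 normalized counts in WT and 24, 24 and 57 in KO at estrus, overlapping groups, and its log2 differences were 0.78 ± 0.54 at estrus and 1.42 ± 0.61 between the stages in KO, neither called. Macrophage markers summed to 321 to 590 in WT and 568 to 777 in KO at estrus, and to 421 to 432 in KO at diestrus. The listed markers did not move together. At estrus C1qa, C1qb and Cd74 differed by 1.56, 1.45 and 1.54, but Csf1r, Adgre1 and Cd68 by -0.10, -0.14 and 0.06. Markers of white and brown adipocytes summed to 45 to 98 in WT and 69 to 108 in KO at estrus, and to 87 to 163 in KO at diestrus. Of these, Ucp1 and Cidea differed by 1.30 and 0.60 at estrus and Fabp4 by -0.91, while Adipoq, Plin1 and Lep had no row. The part of muscle, macrophage and adipocyte transcripts in the result was not tested.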

How the data were processed

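RNA-seq of 10 libraries was used. The tools named in the submitters' processing notes are STAR, HTSeq and DESeq2, on build mm10; no versions, settings or strand are given in the sources used here. The values deposited by the authors form a score, normalized counts rounded by them to whole numbers, so count models were not applied. Groups came from the genotype labels and library names; KO titles contain WT as well.

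Ensembl IDs were matched to symbols, transcript lengths and GC content of GENCODE M21 (GRCm38, 26249 of 26312 matched). The length and GC content of a gene are those of 1 transcript. It was chosen by the APPRIS principal tag of the annotation where there is one, then by the basic tag, and among equals as the longest. Counts per kilobase are mean normalized counts divided by that length. Values were used as log2(value + 1), and differences are on that scale, which understates changes of low genes. The 15180 genes averaging 10 or more were fitted with limma 3.58.1 (R 4.3.3), using group means of all 10 libraries and letting the spread depend on level. For 6 contrasts, two-sided p-values were adjusted by Benjamini-Hochberg across these genes, with 0.05 as threshold. The fit was tested on simulated data. Length and GC trends were fitted per library with mgcv 1.9.3; figures used matplotlib 3.10.9. Depth per gene is unknown beyond the normalized totals.

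The members and lists were chosen with earlier results of these data known, so no list's direction is independent evidence. Named genes are the members called in any contrast, the mitochondrial genes, per complex the nuclear members of highest level and of largest rise and fall at estrus, isoform families, up to 4 called genes per list and contrast, and 7 regulators; the other core subunits, Atp5c1, Tfb2m and the 4 printed promoters were chosen after their values were seen. The values of 1 member are not reported here by name. Alternatives were 2 pseudocounts, 2 filters, 4 scalings, removal of the length and GC trend, no trend in the spread, library weights, a replicate block, fits of the compared groups, and omission of each library.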

Additional observations from a re-analysis of the deposited data

How the results depend on the processing

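The count of members higher in KO at estrus, 4 in the fit reported, was 0 with no filter on low values, with the length and GC trend removed, without the trend in the spread, with library weights and with only the groups compared. It was 10 with a mean of at least 50, 10 with equal totals, 10 with equal nuclear totals and 19 with quantile normalization. Leaving out single libraries gave 0 to 15, the 0 arising on omission of WT estrus 2, WT estrus 3, KO estrus 1 or any diestrus library, and 3, 11 and 15 on omission of KO estrus 2, of WT estrus 1 and of KO estrus 3. The count of 56 between the stages in KO was 16 with the length and GC trend removed, 34 without the trend in the spread and 35 with only the groups compared. Leaving out single libraries gave 0 to 60. The cause of these changes was not tested, other than that fewer libraries enter the fits that leave some out.

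The nuclear median at estrus was 0.24 with the length and GC trend removed and 0.31 to 0.48 with single libraries left out, the between-stage median in KO was 0.37 and 0.51 to 0.68, and the interaction median was 0.32 with that trend removed. The mitochondrial median at estrus ran from -0.04 to 0.55 with single libraries left out. No alternative gave a call in any member at diestrus, averaged over the stages, between the stages in WT or in the interaction, and no member was called lower at estrus in any of them.

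At estrus, same-numbered WT and KO libraries had correlations of 0.19, 0.083 and 0.031 between their deviations from the group means. WT and KO libraries of unlike number had correlations from -0.15 to 0.079. Each KO estrus library thus correlated most with the WT library of its number, by small margins in libraries 2 and 3. Whether the numbers mark pairs is not given in the labels. Same-numbered pairs that include a diestrus library ran from -0.13 (WT estrus 2 with WT diestrus 2) to 0.085 (WT estrus 1 with KO diestrus 1). With the replicate number as a block, used across all groups, the count at estrus was 16. Rounding and the normalized scale hide the depth per gene, and the groups of 2 libraries borrow their spread from the others.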
